A study of Mus musculus with 6 samples.

Results

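The elastic fibre and microfibril genes were taken by name from the gene table of PDPN+PDGFRα+ stromal cells sorted from MO5 melanomas. The list holds 10 genes, Eln, Fbn1, Fbn2, Mfap2, Mfap4, Mfap5, Emilin1, Fbln1, Fbln2 and Fbln5, of 53801 in the table, and the rule uses gene names alone, although the list was drawn up with earlier results of these data known. All 10 members were found and all 10 passed the filter on low counts. RNA was sequenced from 3 Ctrl and 3 DTR libraries, and total counts per library ran from 22339635 to 34271929.

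MO5 tumors grow from B16 melanoma cells that carry the ovalbumin gene, and they were implanted under the skin of mice on the C57Bl/6 background that were 8 to 12 weeks old. DTR mice carried the ADAM12-DTR transgene, a bacterial artificial chromosome in which Adam12 regulatory sequence drives tTA and the diphtheria toxin receptor, and Ctrl mice were sex-matched littermates without a transgene. The labels give DTR+ and DTR- as the genotypes, and diphtheria toxin as the treatment of both. The comparison therefore asks what differs in the fraction sorted as PDPN+PDGFRα+ cells when it comes from tumors depleted of ADAM12+ cells. CD45+ and CD31+ cells were removed in the sort. The number of animals behind each library is not given in the sources used here, so the spread between libraries may in part be technical.

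Elastic fibres have a core of cross-linked elastin laid on a scaffold of microfibrils, whose backbone is fibrillin. Fibulins and emilins sit in or at the edge of the fibre and help elastin to join the scaffold, while lysyl oxidases cross-link it. Microfibrils also hold latent TGF-β in the matrix, and in skin and its tumors fibroblasts are the main source of most of these proteins.

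Adam12 is the gene whose regulatory sequence drives the toxin receptor in cells to be depleted, and its mean was 190 ± 22.1 CPM in Ctrl and 142 ± 27.5 CPM in DTR (SD, n = 3), where CPM is the count scaled to library size with TMM factors. All 3 DTR libraries were below all 3 Ctrl libraries, with a log2 fold change of -0.42 (SE 0.154) and a Benjamini-Hochberg adjusted p of 0.602 in edgeR's quasi-likelihood test. The sorting markers Pdgfra and Pdpn overlapped between the groups, with log2 fold changes of 0.29 and 0.37 that were -0.026 and 0.070 without DTR 3 and 0.83 and 0.63 without Ctrl 1. The summed CPM of 9 fibroblast markers (Pdgfra, Pdpn, Col1a1, Col1a2, Col3a1, Dcn, Lum, Thy1 and Fap), of which the 3 collagens made up 92.5% to 96.1%, ranged from 5161 to 13609 in Ctrl and from 5567 to 14099 in DTR. The summed CPM of 12 melanoma markers ranged from 17935 to 21032 in Ctrl and from 16855 to 19884 in DTR. It exceeded the fibroblast sum in all 6 libraries, so these libraries held melanoma transcripts beside those of the sorted cells. A difference between the groups can therefore not be assigned to the sorted cells alone.

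Over the 10 members, 8 had a higher mean and 2 a lower mean in DTR, and the median log2 fold change was 0.45, beside -0.0029 over the 15133 genes tested. Eln, Fbn1 and Mfap5 had the largest differences, each about 1 on the log2 scale. Emilin1, lower in DTR, was the only member of 10 whose groups did not overlap. Of all genes tested, 14.5% had non-overlapping groups in either direction, and 8.19% with DTR lower. In edgeR's quasi-likelihood test, 0 of 10 members had an adjusted p under 0.05, as did 0% of all genes tested. At an unadjusted p under 0.05 there were 2 members, Eln (higher) and Emilin1 (lower), where 7.92% of all genes passed, 3.81% higher and 4.11% lower. That count was 7 without Ctrl 1, where 1324 of 15853 genes passed, and 5 without DTR 2, where 1191 of 15694 passed. It was 1 without any of the other 4 libraries in turn, where from 827 of 15871 (without Ctrl 2) to 1604 of 15665 genes (without DTR 1) passed. DESeq2 also called 0 members, with 2 at an unadjusted p under 0.05 (Fbn2 and Emilin1), where it called 0.152% of all genes after adjustment and 4.89% before it. The median was 0.98 without Ctrl 1, 0.24 without Ctrl 2 and 0.26 without DTR 3.

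**Figure D1:**
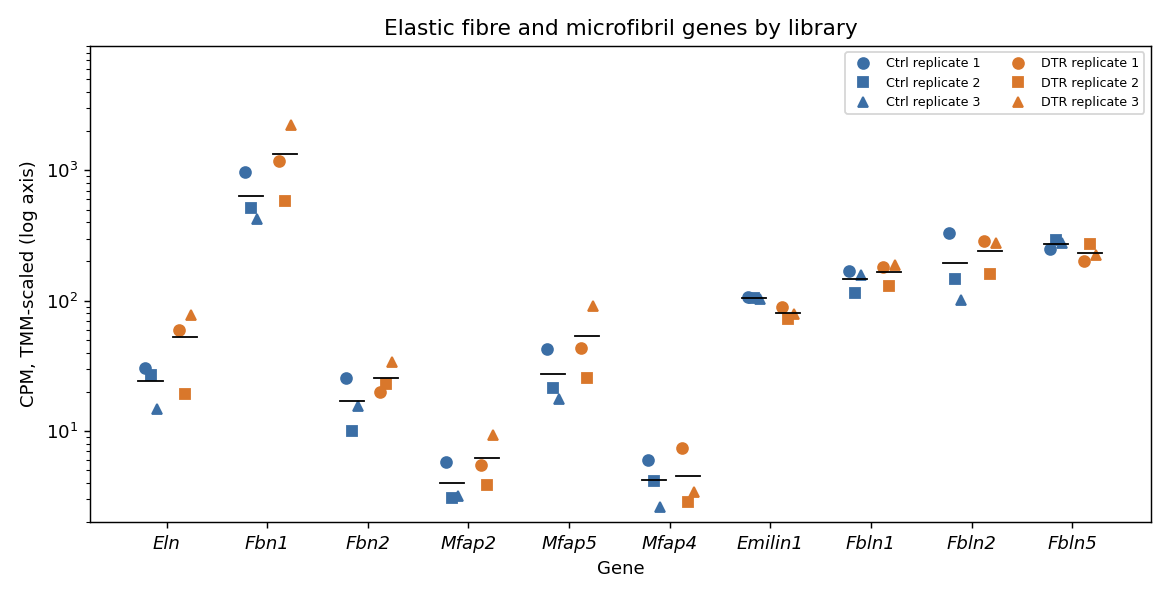
Level of each member in each library, in TMM-scaled CPM on a log axis; blue marks are Ctrl, orange marks are DTR, the mark's shape is the replicate number and the short line is the group mean. Emilin1 is the only member in which the 3 DTR libraries lie below all 3 Ctrl libraries, which holds for 8.19% of all genes tested. DTR 3 is the highest library for 6 members.

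The fibre core is made of tropoelastin, the product of Eln. Eln lies on chromosome 5 from 134702593 to 134747323 (GRCm38, minus strand), with 8098 bases of merged exon. It stood at 30.5, 27.0 and 14.7 CPM in Ctrl 1, 2 and 3 and at 59.9, 19.3 and 77.7 CPM in DTR 1, 2 and 3. DTR 1 and DTR 3 were above all Ctrl libraries, whereas DTR 2 lay within the Ctrl range. The means were 24.1 ± 8.26 CPM in Ctrl and 52.3 ± 29.9 CPM in DTR (SD, n = 3), and the log2 fold change was 1.12 (SE 0.474) with an adjusted p of 0.622 in edgeR. The two-sided exact permutation test over the 6 libraries gave p = 0.3, where 0.1 is the smallest value that 3 against 3 libraries allow. Without DTR 3 the log2 fold change of Eln was 0.72.

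Fibrillin-1, from Fbn1, is the main fibrillin of adult microfibrils. Its gene lies on the minus strand of chromosome 2 from 125300594 to 125507993, with 12128 bases of merged exon. Fbn1 was measured at 974, 510 and 426 CPM in Ctrl and at 1182, 581 and 2237 CPM in DTR, in the order of the replicates. The value in DTR 3 was the highest of the 6 and DTR 2 lay between Ctrl 1 and Ctrl 2. Means of 637 ± 295 CPM in Ctrl and 1333 ± 839 CPM in DTR (SD, n = 3) gave a log2 fold change of 1.07 (SE 0.482) and an adjusted p of 0.630 in edgeR. It was 0.47 without DTR 3 and 1.51 without Ctrl 1.

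Fibrillin-2, from Fbn2, is best known from developing microfibrils. Fbn2 was measured at 25.5, 10.04 and 15.5 CPM in Ctrl and 19.9, 23.2 and 34.1 CPM in DTR. Here the high DTR 3 value was not joined by a low DTR 2 value, and Ctrl 1 lay above DTR 1 and DTR 2. The log2 fold change was 0.60 (SE 0.337, adjusted p = 0.662 in edgeR), and it was 0.33 without Ctrl 2, 0.34 without DTR 3 and 1.01 without Ctrl 1. In DESeq2 the adjusted p of Fbn2 was 0.769.

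Mfap2 and Mfap5 encode small glycoproteins that bind fibrillin along the microfibril. Mfap5 lies on the plus strand of chromosome 6 from 122505845 to 122529290, and Mfap2 on the plus strand of chromosome 4 from 141010418 to 141015984. Mfap5 had 42.4, 21.5 and 17.8 CPM in Ctrl and 43.2, 25.7 and 91.1 CPM in DTR. The order of the libraries was that of Fbn1, with Ctrl 3 lowest and DTR 3 highest. The log2 fold change was 0.97 (SE 0.480, adjusted p = 0.647 in edgeR) and was 0.34 without DTR 3. Mfap2 was scarce, at 5.75, 3.05 and 3.16 CPM in Ctrl and 5.52, 3.83 and 9.34 CPM in DTR, which correspond to 73 counts in its lowest library and 212 in its highest. Its log2 fold change was 0.64 (SE 0.399, adjusted p = 0.687 in edgeR), and it was 0.23 without DTR 3 and 1.00 without Ctrl 1. The Ctrl 1 value of Mfap2 exceeded DTR 1 and DTR 2, so the groups overlapped.

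Mfap4 encodes a fibrinogen-related protein that binds elastic fibres. It was measured at 5.96, 4.14 and 2.63 CPM in Ctrl and at 7.44, 2.86 and 3.39 CPM in DTR. DTR 1 was the highest library, and the other DTR libraries lay within the Ctrl range. The log2 fold change was 0.11 (SE 0.447, adjusted p = 0.953 in edgeR), and its sign turned without DTR 1 (-0.42), without Ctrl 3 (-0.14) and with the summed level of 9 fibroblast markers as a covariate (-0.087), a fit added after seeing the data.

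Emilin1 encodes emilin-1, a glycoprotein found where elastin meets the microfibril, which binds integrins and restrains the processing of pro-TGF-β. The gene lies on the plus strand of chromosome 5 from 30913402 to 30921277, with 4937 bases of merged exon. Emilin1 stood at 106.1, 104.0 and 103.7 CPM in Ctrl and at 89.9, 72.1 and 79.5 CPM in DTR. All 3 Ctrl libraries were above all 3 DTR libraries, and the Ctrl libraries were nearly level, with the highest 1.02 times the lowest. Non-overlapping groups with DTR lower were found for 8.19% of all genes tested, and for 14.5% in either direction. The means were 104.6 ± 1.27 CPM in Ctrl and 80.5 ± 8.91 CPM in DTR (SD, n = 3), and the log2 fold change was -0.38 (SE 0.0986) with an adjusted p of 0.602 in edgeR and 0.389 in DESeq2. The exact permutation test gave p = 0.1, the smallest it can give here. Leaving out any 1 library gave log2 fold changes between -0.45 and -0.31, and the fibroblast covariate gave -0.41.

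The fibulins are glycoproteins that connect elastin with other matrix proteins. Fibulin-5, from Fbln5, binds tropoelastin and integrins and is needed for elastic fibre assembly. Fbln5 lies on the minus strand of chromosome 12 from 101746565 to 101819055. It was measured at 249, 292 and 277 CPM in Ctrl and at 201, 271 and 224 CPM in DTR. DTR 1 and DTR 3 were below all Ctrl libraries, and DTR 2 lay between Ctrl 1 and Ctrl 3. Its log2 fold change was -0.23 (SE 0.124, adjusted p = 0.655 in edgeR), and between -0.36 and -0.13 in the fits without 1 library.

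Fibulin-2, from Fbln2, is found in basement membranes and around elastic fibres. Fbln2 had 333, 147 and 100.4 CPM in Ctrl and 286, 159 and 275 CPM in DTR. Here Ctrl 1, not DTR 3, was the highest library. The log2 fold change was 0.31 (SE 0.419, adjusted p = 0.855 in edgeR), and it ranged from 0.0022 without Ctrl 3 to 0.96 without Ctrl 1. Fibulin-1, from Fbln1, binds fibronectin and is found in elastic fibres and basement membranes. Fbln1 was steadier, at 168, 115 and 157 CPM in Ctrl and 182, 131 and 187 CPM in DTR, with overlapping groups. Its log2 fold change was 0.18 (SE 0.180, adjusted p = 0.794 in edgeR), and between 0.03 and 0.33 in the fits that left out a library.

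**Figure D2:**
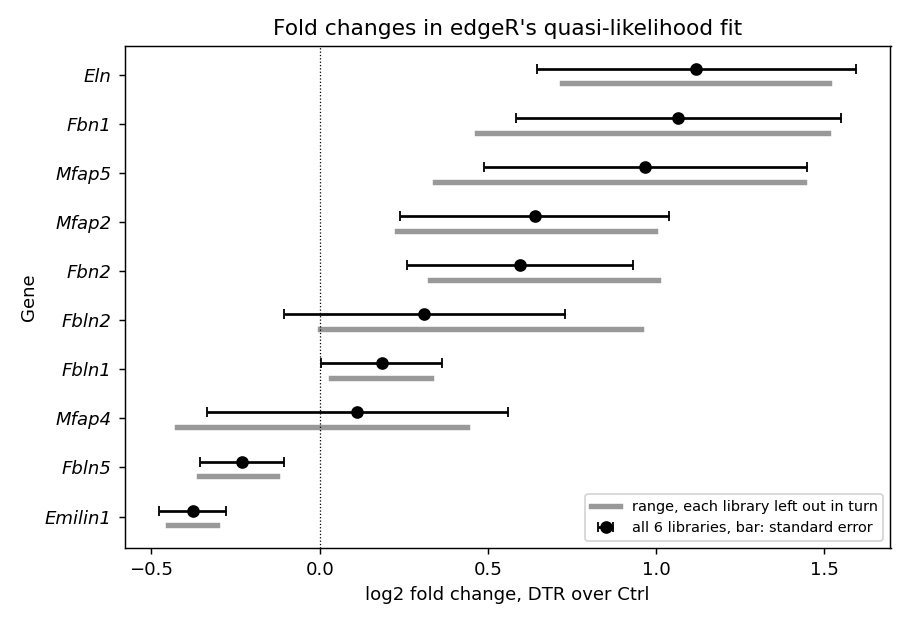
Log2 fold change of each member, DTR over Ctrl, in edgeR's quasi-likelihood fit; black points are all 6 libraries with bars of 1 standard error, and grey lines give the range of the 6 fits that leave out 1 library. The grey range of Mfap4 reaches from -0.42 to 0.44 across 0, and that of Emilin1 from -0.45 to -0.31.

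The members occupied very different levels. The merged exon length pools all annotated exons of a gene, and the order of the members depends on that choice of length. Per kilobase of merged exon length and averaged over the 6 libraries, Fbn1 was the highest at 81.2 ± 56.0 CPM per kb (SD, n = 6). Fbln5, Fbln1 and Fbln2 followed at 36.5 ± 4.99, 35.9 ± 6.57 and 34.0 ± 14.6 CPM per kb. Fbn1 exceeded Fbln5 in 4 of 6 libraries, Fbln5 exceeded Fbln1 in 3 and Fbln1 exceeded Fbln2 in 3, so the order of the 3 fibulins was not fixed by these libraries. Fbln2 exceeded Emilin1 (18.7 ± 2.91 CPM per kb) in 5 of 6 libraries, and Emilin1 exceeded Mfap5 (11.2 ± 7.54) in 5 of 6. Below Mfap5 came Eln at 4.71 ± 3.08, Mfap2 at 4.22 ± 1.96, Mfap4 at 2.29 ± 0.993 and Fbn2 at 1.62 ± 0.632 CPM per kb. Mfap5 exceeded Eln, and Mfap2 exceeded Mfap4, in all 6 libraries, whereas Eln exceeded Mfap2 in 3 and Mfap4 exceeded Fbn2 in 4. The order of the group means differed, with Fbln5 at rank 2 in Ctrl (39.5 ± 3.14 CPM per kb) and at rank 4 in DTR (33.6 ± 5.16). Mean Eln was below Mfap2 in Ctrl and above it in DTR. Single libraries did not all follow these orders. Fbln5 was below Fbln1 and Fbln2 in Ctrl 1 and above both in DTR 2. Eln was above Mfap2 in Ctrl 2 and below it in DTR 2. The difference in order was not tested. Fbn1 was at rank 1 in both, at 52.5 ± 24.4 CPM per kb in Ctrl and 109.9 ± 69.2 in DTR (SD, n = 3). Of the summed CPM of the members, not per length, Fbn1 made up between 38.1% (Ctrl 3) and 69.5% (DTR 3).

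The genes also differed in how far they varied between libraries. The highest library was 5.27 times the lowest for Eln, 5.26 times for Fbn1 and 5.13 times for Mfap5. The same ratio was 3.31 for Fbln2, 3.06 for Mfap2 and 2.82 for Mfap4, and Fbn2 lay just above Fbln2. It was only 1.63 for Fbln1, 1.47 for Emilin1 and 1.45 for Fbln5. DTR 3 was the highest library for 6 members and Ctrl 3 the lowest for 5.

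The likeness of 2 members was measured as the mean absolute difference of their centred log2 CPM over the 6 libraries. Fbn1 and Mfap5 were the closest of 45 pairs, at 0.0701. The number of Mfap5 counts per 100 Fbn1 counts was 4.35, 4.22 and 4.18 in Ctrl and 3.66, 4.43 and 4.07 in DTR, which overlapped (exact permutation p = 0.5). The proportion thus lay between 3.66 and 4.43 while Fbn1 itself spanned a 5.26-fold range. The next closest pairs were Emilin1 with Fbln5 at 0.181 and Mfap2 with Mfap5 at 0.188, and the farthest was Fbn1 with Fbln5 at 0.886. Genes that vary little lie close on this measure whatever their order of libraries, and Emilin1 and Fbln5 both varied little. Their centred values were -0.34 and 0.11 in DTR 2, and -0.027 and -0.32 in DTR 1.

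Emilin1 did not follow Fbn1. The number of Emilin1 counts per 100 Fbn1 counts was 10.9, 20.4 and 24.4 in Ctrl and 7.60, 12.4 and 3.55 in DTR. DTR 1 and DTR 3 were below all Ctrl libraries and DTR 2 was above Ctrl 1. Of 8 ratios compared, this one had an exact permutation p of 0.2, and the lowest p after Benjamini-Hochberg adjustment over the 8 was 0.48. These distances and ratios share the libraries and their depth, and are given as descriptions.

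**Figure D3:**
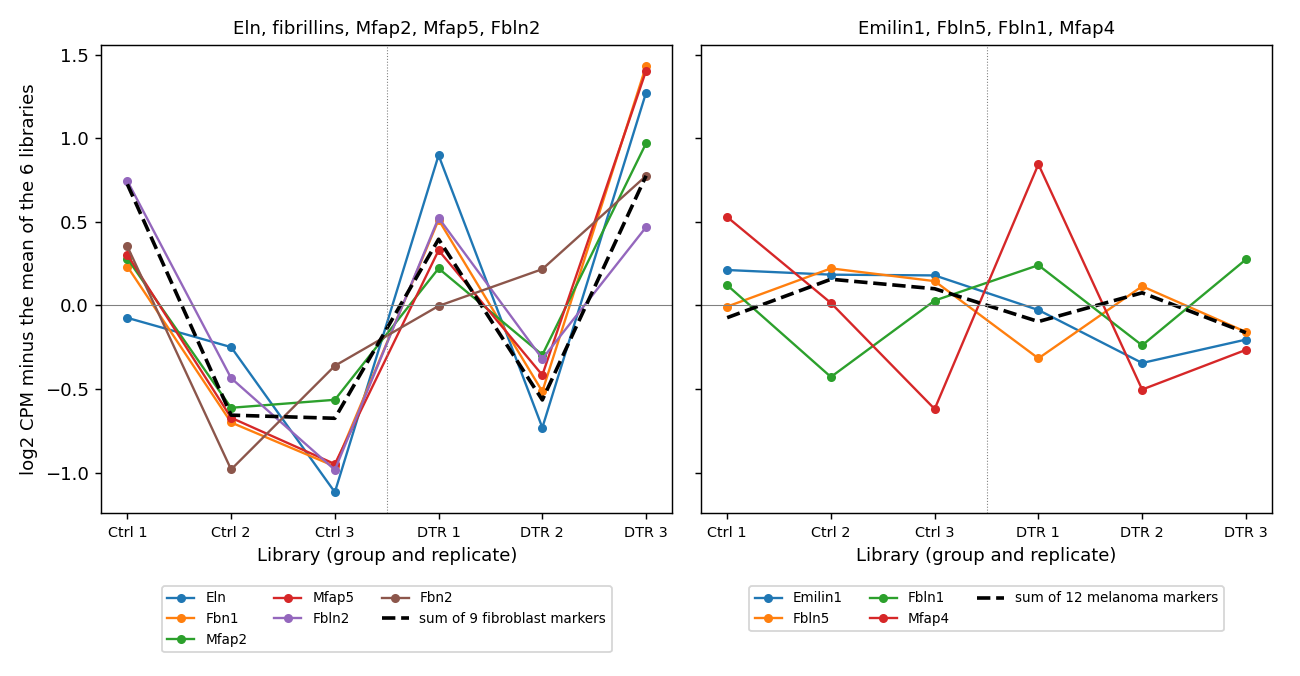
Centred log2 CPM of the members in each library, with the dashed sum of 9 fibroblast markers (left) and of 12 melanoma markers (right); lines join the points of 1 gene and the libraries have no order. Fbn1 and Mfap5 lie almost on each other and peak in DTR 3, whereas Emilin1 and Fbln5 vary little, as the melanoma sum does.

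**Figure D4:**
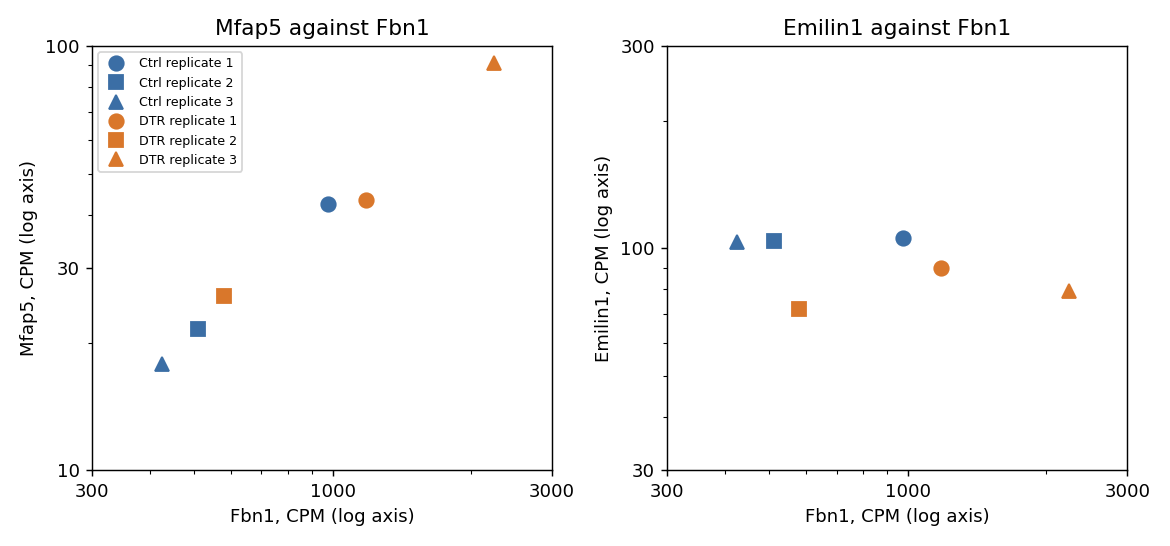
Mfap5 (left) and Emilin1 (right) against Fbn1 in each library, in CPM on log axes; blue marks are Ctrl and orange marks are DTR. Mfap5 has the same order of the 6 libraries as Fbn1, and Emilin1 lies between 72.1 and 106.1 CPM at every level of Fbn1.

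Marker sums moved with several members. The fibroblast sum was 13609, 5228 and 5161 CPM in Ctrl and 10840, 5567 and 14099 CPM in DTR, and its distance was 0.274 to Fbn1, 0.206 to Mfap2 and 0.205 to Fbln2. Because the collagens dominate, this sum, the covariate and the ratios taken to it measure mainly those 3 genes. In bulk libraries fewer cells of a type and less RNA per cell cannot be told apart. With the fibroblast sum as a covariate, the median log2 fold change of the members was 0.20, with 0.59 for Eln, 0.54 for Fbn1 and 0.50 for Mfap5. Per 1000 CPM of the fibroblast sum, Fbn1 was 71.6, 97.6 and 82.5 in Ctrl and 109, 104 and 159 in DTR, and the groups did not overlap (exact permutation p = 0.1). It was the only member of 10 whose groups did not overlap on this scale, where they did not overlap for 1.04% of all genes tested with DTR higher and for 0.932% with DTR lower, against 6.3% with DTR higher on the CPM scale. Emilin1 overlapped on this scale, at 7.79, 19.9 and 20.1 in Ctrl and 8.29, 13.0 and 5.64 in DTR (exact permutation p = 0.3). Relative to the 6 fibroblast markers that are not collagens, a ratio taken after seeing the data, Fbn1 was 1825, 2276 and 1172 in Ctrl and 2310, 1933 and 2115 in DTR per 1000 CPM, and all 10 members overlapped (exact permutation p = 0.4 for Fbn1).

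The S1-type fibroblast markers, among them Dpp4, Cd34 and Pi16, summed to 1492, 735 and 993 CPM in Ctrl and 1601, 756 and 3826 CPM in DTR. All 10 of these markers had a higher mean in DTR. Their median log2 fold change was 1.11, and 0.30 without DTR 3, and 0 were called by edgeR after adjustment, with 3 at an unadjusted p under 0.05. This sum lay closer than the fibroblast sum to the 3 members with the largest differences, at 0.226 from Fbn1, 0.231 from Mfap5 (0.259 for the fibroblast sum) and 0.418 from Eln (0.469). Relative to the S1-type sum, Fbn1 overlapped between the groups (exact permutation p = 0.5). The melanoma sum lay at 0.0734 from Fbln5 and 0.154 from Emilin1, each of which varied little. Emilin1 and this sum lay on opposite sides of their means in Ctrl 1 (centred 0.21 and -0.073) and DTR 2 (-0.34 and 0.076). They lay on the same side in the other libraries. Of 12 melanoma markers, 10 had a lower mean in DTR, at a median log2 fold change of -0.082 (-0.20 without DTR 2). After adjustment 0 were called by edgeR, and 1 had an unadjusted p under 0.05. The sum of 11 mural and smooth muscle markers was 104, 59.3 and 81.9 CPM in Ctrl and 53.6, 64.6 and 45.8 CPM in DTR. Of 8 tested, 7 had a lower mean in DTR, at a median log2 fold change of -0.72 (-0.30 without Ctrl 1), with 0 called by edgeR after adjustment and 1 at an unadjusted p under 0.05, Cspg4 (-1.02), whose groups did not overlap. Among 8 endothelial markers, Cldn5 and Emcn did not exceed 3 counts in any library, and Cdh5 had 0 counts in DTR 3. The endothelial sum was highest in DTR 3 at 101 CPM, of which Tek alone gave 62.8, while Pecam1 was at 4.01 CPM there, below 8.02 in DTR 1 and 5.40 in DTR 2. Kdr and Esam were also highest in DTR 3, at 11.98 and 1.19 CPM, and Vwf was at 15.5, 15.4 and 12.1 CPM in Ctrl and 19.8, 19.9 and 21.3 CPM in DTR. Of 6 endothelial markers tested, 5 had a higher mean in DTR, at a median log2 fold change of 0.56 (0.15 without DTR 3), with 0 called by edgeR after adjustment and 2 at an unadjusted p under 0.05. Beyond the fibroblast covariate and these ratios, the part that such cell types had in the levels of the members was not tested.

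Among genes that are not members and had a mean of at least 10 CPM, the 5 whose centred profile was nearest to the mean profile of the members were Csf1 (0.0502), a macrophage growth factor, Cavin1 (0.0710), a coat protein of caveolae, Pim1 (0.0781), a kinase, Pdpn (0.0808), the sorting marker podoplanin, and Dcbld2 (0.0816), a membrane receptor. They were taken from 8783 genes over 6 libraries. Csf1 stood at 83.8, 55.4 and 46.7 CPM in Ctrl and at 79.1, 55.0 and 108.0 CPM in DTR, with the same low Ctrl 3 and high DTR 3.

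The other genes of the pathway were read from 4 lists, in which edgeR called 0 genes after adjustment. Of 23 assembly and microfibril partners, 21 were tested, 13 with a higher and 8 with a lower mean, at a median log2 fold change of 0.13, and 6 had an unadjusted p under 0.05. Without DTR 3 that median was -0.0062, and without Ctrl 1 it was 0.39. Thsd4, whose product binds fibrillin-1 and promotes its deposition, was at 3.43, 4.02 and 4.39 CPM in Ctrl and 6.42, 10.6 and 7.05 CPM in DTR. Its groups did not overlap, and its log2 fold change of 1.02 (SE 0.260) had an adjusted p of 0.602 in edgeR and 0.181 in DESeq2. Efemp1, which encodes the fibulin family member fibulin-3, had the highest log2 fold change of the list, 1.57 (SE 0.586), and 0.58 without DTR 3. Ltbp1, a latent TGF-β binding protein that attaches to fibrillin, had 1.24 (SE 0.497), and 0.43 without DTR 3. Adamts6, a metalloproteinase known to act on microfibrils, had 0.50 (SE 0.206). Emilin3 had the lowest, -2.25 (SE 0.818), on 11, 13 and 13 counts in Ctrl and 4, 5 and 0 in DTR, close to the 3 counts taken as the floor.

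All 6 cross-linking genes were tested, and 0 had an unadjusted p under 0.05. Their log2 fold changes lay between -0.21 for Loxl3 and 0.82 for Loxl4, both lysyl oxidases, and 5 of 6 were above 0. Loxl3 was at -0.021 without Ctrl 1, and Loxl4 at 0.18 without DTR 3. Their median of 0.23 was 0.94 without Ctrl 1 and 0.033 without Ctrl 2. Of 18 elastases and their inhibitors, 15 were tested, 8 higher and 7 lower at a median of 0.01 (-0.023 without DTR 3), with 2 at an unadjusted p under 0.05. Mmp9, a gelatinase that also cuts elastin, was at 9.26, 3.14 and 4.67 CPM in Ctrl and 1.48, 1.64 and 1.23 CPM in DTR. All DTR libraries were below all Ctrl libraries, and the log2 fold change of -1.96 (SE 0.433) had an adjusted p of 0.602 in edgeR and 0.0115 in DESeq2, the only call in these lists by either tool. Timp3, a matrix-bound metalloproteinase inhibitor, had a log2 fold change of 1.22 (SE 0.381, adjusted p = 0.602 in edgeR), and 0.74 without DTR 3.

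Of 9 TGF-β and integrin genes, 8 were tested, 5 higher and 3 lower at a median of 0.10 (-0.0097 without Ctrl 2, 0.25 without DTR 2), with 2 at an unadjusted p under 0.05. Itgb6, the β subunit of an integrin that activates latent TGF-β, was at 1.02, 0.669 and 1.12 CPM in Ctrl and 3.399, 2.93 and 2.73 CPM in DTR. Its groups did not overlap, with a log2 fold change of 1.68 (SE 0.360) and an adjusted p of 0.602 in edgeR and 0.0725 in DESeq2. Tgfb1, the TGF-β1 ligand, was at 36.0, 35.6 and 33.3 CPM in Ctrl and 27.9, 31.6 and 25.7 CPM in DTR. All DTR libraries were below all Ctrl libraries, which held for 8.19% of all genes tested. The log2 fold change of Tgfb1 was -0.30 (SE 0.112, adjusted p = 0.602 in edgeR), the lowest of this list.

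**Figure D5:**
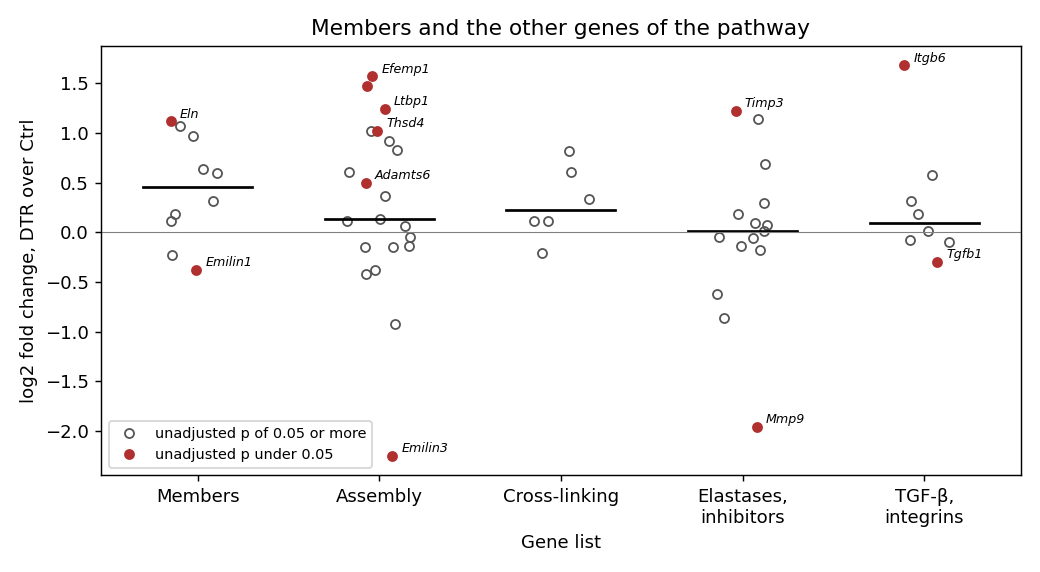
Log2 fold change, DTR over Ctrl, of the tested members and of the tested genes of 4 pathway lists in edgeR's quasi-likelihood fit; the line is the median of a list and red points have an unadjusted p under 0.05. The median of the members is 0.45, above those of the other 4 lists here but not without Ctrl 2 (0.24, against 0.30 for the assembly list), and 0 points pass the adjusted threshold.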

How the data were processed

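PDPN+PDGFRα+ cells were sorted from tumors and libraries were made from total RNA with a stranded kit. The authors trimmed reads with cutadapt 3.4, aligned them to GRCm38 with STAR 2.7.3a and counted them per gene with featureCounts 2.0.1, using strand, and deposited the raw counts, which are used here. The methods and the data availability text name different annotation releases. Normalized values and the authors' own DESeq2 comparison (fold changes and p-values) stand in the same table and were not used.

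Counts were scaled with TMM factors, genes were kept by filterByExpr (minimum count 10, minimum total 15), and the groups were compared in edgeR 4.0.16 (quasi-likelihood test, two-sided, Benjamini-Hochberg adjustment over 15133 genes) in R 4.3.3, without covariates. Adjusted p under 0.05 was the threshold. An exact permutation test of log2 CPM compared single values. The residual degrees of freedom were 4. Exon lengths come from GENCODE M21, in which no member shares a strand with an overlapping gene. A floor of 3 counts corresponds to 0.0872 to 0.132 TMM-scaled CPM and covers counting error only. The steps were tested on simulated data.

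Members and lists were chosen with earlier results of these data known. Named were all members, Adam12, Pdgfra and Pdpn, the lowest and highest log2 fold change of each partner list, up to 5 genes with the lowest unadjusted p under 0.05 and the 5 nearest profiles. Endothelial, mural, fibroblast and S1-type markers were named after their values were seen. Alternatives were other scalings and filters, robust moderation, DESeq2 1.42.0, a replicate block, an offset (loess, span 0.5) for genomic span, each library left out, and, added after seeing the data, the fibroblast covariate.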

Additional observations from a re-analysis of the deposited data

How the results depend on the processing

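Under the 15 alternatives, 0 of 10 members had an adjusted p under 0.05, and 147 of 150 single-gene log2 fold changes kept their direction. The 3 exceptions were all Mfap4, at -0.14 without Ctrl 3, -0.42 without DTR 1 and -0.087 with the fibroblast covariate, and its highest value was 0.44. DESeq2 called 31 of all genes and 1 of the partner genes, Mmp9, where edgeR called 0. The cause was not tested. With 1 library left out at a time, between 0 and 2 of all genes were called, 0 members and 0 partner genes, and the members' median log2 fold change ran from 0.24 to 0.98, the latter without Ctrl 1, in which 2 genes were called. With all genes of at least 1 count kept, 5 members had an unadjusted p under 0.05, against 2, with 1810 of 26774 genes. The median was 0.31 with the offset for genomic span. Replicate numbers are shared by the labels, but the correlations of same-numbered deviations were 0.11, 0.13 and -0.04, and Ctrl 3 correlated best with DTR 2, so the numbers were not taken to pair the libraries. With the replicate block, 0 genes were called, 1271 had an unadjusted p under 0.05 and the members' median was 0.52. Scaling moved the median of all genes from -0.0029 (TMM) to 0.0072 and 0.0261. The spread between libraries limits the members, whose standard errors ran from 0.0986 (Emilin1) to 0.482 (Fbn1).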
